A study of Mus musculus with 20 samples.

Results

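The subject here is a set of 37 genes that mark T cells, B cells and natural killer cells, chosen by their symbols and followed in the mouse ventral prostate after castration and after the return of testosterone. All 37 were found among the 43472 genes of the count table, and 18 of them passed the filter on low values, which asked for 10 or more normalized counts in 5 or more of the 20 libraries and kept 15261 genes. A normalized count is the read count divided by a size factor that evens out sequencing depth. The remaining 19 were measured but too low to test. Bulk RNA was sequenced from the ventral prostate of 4 groups of male mice with 5 libraries each. Every animal had been orchidectomised, so the source of testicular androgen was gone in the control groups too, and vehicle or testosterone was then given over 4 days. The wild type males (WT) were C57BL/6J mice, and the ARNoC/Y males (ARNoC) carry an androgen receptor altered to lose the contact between its amino terminus and its carboxyl terminus. The labels give no ages. The 4 groups are thus orchidectomised WT with vehicle, orchidectomised WT with testosterone, orchidectomised ARNoC/Y with vehicle and orchidectomised ARNoC/Y with testosterone.

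Libraries held 8861646 to 21600352 counts, so 1 read was worth 0.600 to 1.55 normalized counts, and a member at 5 normalized counts rests on a handful of reads. The labels do not say whether each library is a separate animal, so a p-value speaks only of the spread among the libraries. In whole tissue, fewer cells of a type, less RNA per cell and more RNA from other cells cannot be told apart. Genes of luminal prostate epithelium were high in every library, with a summed level of 49989 to 93720 normalized counts over 9 markers. Markers of myeloid cells varied widely among the vehicle libraries. Over 24 such markers the sum was lowest in library 2 of WT with vehicle, at 4737 normalized counts, and in library 5 of ARNoC with vehicle, at 4475. The same 2 libraries were left out together as stroma-poor in 1 alternative. Results that change without those 2 libraries are given with both values.

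T cells recognise antigen through a receptor whose signal is carried by the CD3 chains and CD247, and start the cascade with the kinases LCK and ZAP70 and the adaptor LAT. A second signal comes through CD28, while CTLA4 binds the same ligands and restrains the response. Natural killer cells and cytotoxic T cells kill through perforin and granzymes, and B cells carry the antigen receptor of immunoglobulin, CD79A and CD79B. In the rodent ventral prostate, castration makes the epithelium shrink and draws leukocytes into the gland, and androgen makes the epithelium grow again.

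With testosterone many of the lymphocyte genes that could be tested were lower and a single one was higher. In WT, edgeR's quasi-likelihood test called 11 of the 18 tested members lower and 1, Cd28, higher at an adjusted p under 0.05, and 6 were not called. Over all tested genes 39.2% were called, 20.4% higher and 18.8% lower. The median log2 change was -1.36 for the 18 members and -0.02 for all genes. In ARNoC, 11 members were likewise lower, Cd28 higher and 6 not called, with a median of -1.37 against -0.01 for all genes, of which 36.2% were called, 19.4% higher and 16.8% lower. Cd3e, Cd3g, Cd8a, Lck, Il2rb, Nkg7, Gzmb, Klrb1c and Cd22 were called lower in both genotypes.

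How a gene came to be tested bears on these counts. Of the 18 members, 8 reached 10 normalized counts in 5 libraries through vehicle libraries only, so a lower value with testosterone was partly built into their selection, and none came in through testosterone libraries only. The other 10 (Cd3g, Lck, Cd28, Il2rb, Tcf7, Nkg7, Gzma, Gzmb, Ighm and Igkc) reached it in 5 vehicle and in 5 testosterone libraries. Among these 10, 5 were called lower and 1 higher in WT, with a median log2 change of -1.08. The corresponding numbers in ARNoC were 6 lower and 1 higher, with a median of -1.33. When counts were scaled to the library total alone, the median of all genes moved by -0.42 in WT and -0.35 in ARNoC. All genes then split into 1099 higher and 9120 lower in WT and 1178 higher and 7548 lower in ARNoC. Under that scaling 16 members were called lower in WT and 11 in ARNoC, and Cd28 was still called higher in both.

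**Figure D1:**
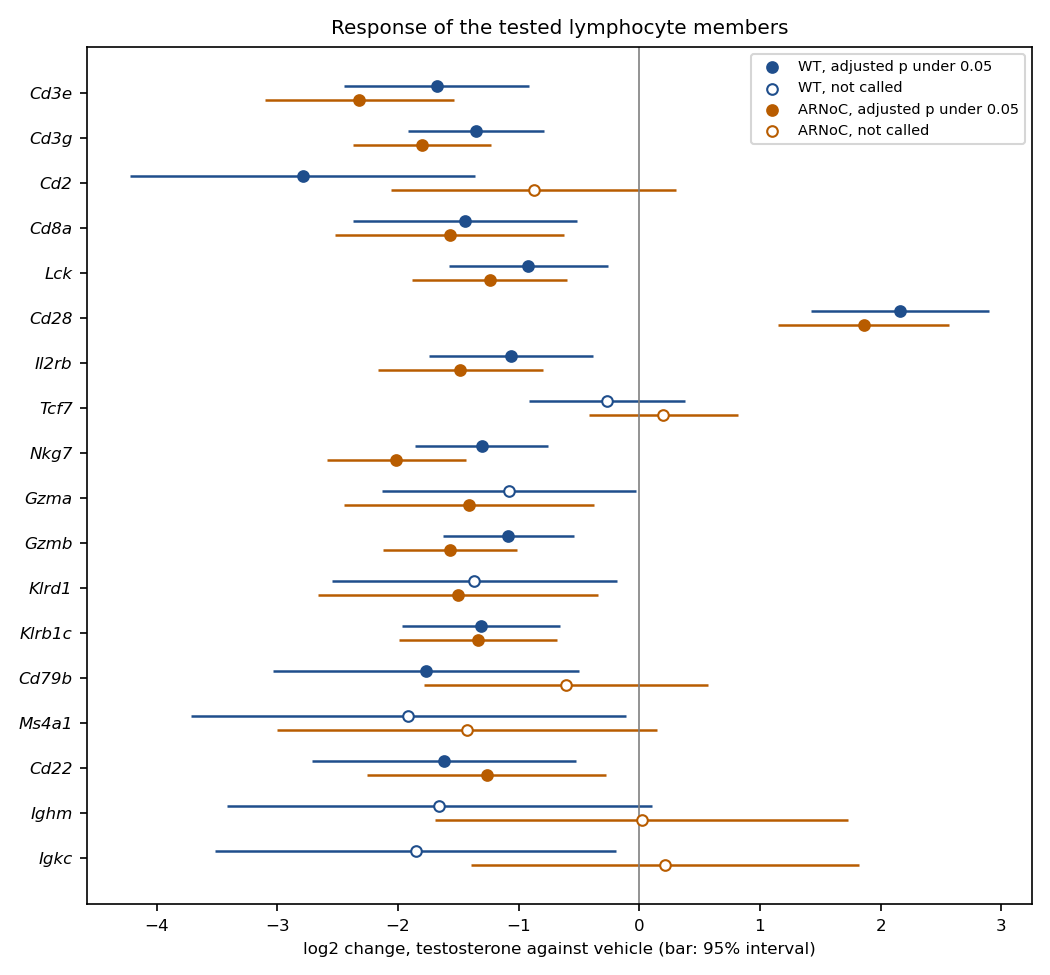
Log2 change of each of the 18 tested members, testosterone against vehicle, in WT (blue) and ARNoC (orange); points are edgeR estimates, bars 95% intervals, and filled points passed an adjusted p of 0.05. All filled points but those of Cd28 lie left of 0, and the intervals are widest for Ms4a1, Ighm and Igkc.

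Of the T cell receptor chains, Cd3e and Cd3g were tested and both fell in both genotypes. Cd3e, whose product starts the receptor's signal, lies on chromosome 9 at 44998740 to 45009627, minus strand, in mm10. Its normalized counts in WT were 25.8, 16.5, 25.7, 21.3 and 13.8 with vehicle and 6.16, 2.36, 4.65, 10.6 and 7.49 with testosterone. In ARNoC they were 14.4, 25.97, 21.3, 28.2 and 17.6 with vehicle and 2.13, 2.34, 2.34, 5.399 and 8.31 with testosterone. Every vehicle library lay above every testosterone library of its genotype. The log2 change was -1.68 ± 0.37 (SE, adjusted p = 0.0012) in WT and -2.32 ± 0.38 (adjusted p = 6.3e-05) in ARNoC.

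Cd3g encodes the gamma chain of the same complex and was counted at a higher level than Cd3e in all 20 libraries. WT libraries gave 34.1, 41.7, 52.2, 39.8 and 29.8 normalized counts with vehicle and 12.3, 8.25, 15.5, 19.97 and 19.97 with testosterone. ARNoC libraries gave 30.9, 30.4, 38.0, 52.3 and 31.5 with vehicle and 15.9, 7.02, 7.03, 10.8 and 10.7 with testosterone. The treatments did not overlap in either genotype. Cd3g fell by 1.35 ± 0.27 on the log2 scale (adjusted p = 0.00049) in WT and by 1.80 ± 0.27 (adjusted p = 3.3e-05) in ARNoC. Cd3d and Cd247, the other chains, had 116 and 130 counts over all 20 libraries and were not tested. Cd247 nevertheless separated the ARNoC treatments without overlap, at 5.23 to 8.63 normalized counts with vehicle and 1.06 to 4.68 with testosterone. It was the 1 of the 19 untested members to do so in ARNoC, where 10.7% of all tested genes were lower without overlap. Its testosterone values rest on 1 to 4 reads per library.

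Cd3g and Cd3d lie head to head on chromosome 9, their annotated starts 1355 bases apart, and are transcribed away from each other. Their promoters are shown because these chains belong to the same receptor complex and lie side by side. Each run is the 250 bases before the RefSeq start in GRCm38.p6, chr9:44980432-44980681 on the minus strand for Cd3g and chr9:44981536-44981785 on the plus strand for Cd3d. Capitals mark GGAA or its reverse complement TTCC, the core that ETS factors bind, and TGTGGT or ACCACA, the core that RUNX factors bind.
Cd3g: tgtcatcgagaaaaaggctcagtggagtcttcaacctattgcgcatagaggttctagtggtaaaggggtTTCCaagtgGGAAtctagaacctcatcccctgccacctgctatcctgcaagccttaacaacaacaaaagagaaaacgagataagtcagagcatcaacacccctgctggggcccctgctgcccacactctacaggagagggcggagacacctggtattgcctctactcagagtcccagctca
Cd3d: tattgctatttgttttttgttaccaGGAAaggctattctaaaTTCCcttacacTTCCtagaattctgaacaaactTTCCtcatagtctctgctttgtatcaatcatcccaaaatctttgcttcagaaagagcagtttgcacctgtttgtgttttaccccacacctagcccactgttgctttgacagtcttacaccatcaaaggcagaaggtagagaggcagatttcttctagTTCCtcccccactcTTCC
The Cd3g window holds the ETS core at 2 places and the Cd3d window at 6, and neither holds the RUNX core. So short a motif is common: 93.4% of 32851 mouse promoters of this length held GGAA on either strand. RefSeq promoters were at hand for 24 of the 37 members, 30 promoters in all, and 26 of the 30 held GGAA. The RUNX core TGTGGT was found, on either strand, in 10 of the 30 and in 14.05% of all promoters. AGAACA, a half-site of the androgen receptor element, or its reverse complement was found in 5 of the 30 and in 16.1% of all promoters. TCAAAG, which TCF and LEF factors bind, or its reverse complement was found in 2 of the 30 and in 13.8% of all. No motif searched lies whole within another, though neighbouring matches can share bases. A match here is a run of letters and not a measured site.

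Among coreceptors and surface proteins, Cd8a and Cd2 were tested. Cd8a encodes the coreceptor of cytotoxic T cells, and is also made by some dendritic cells. In WT it stood at 39.3, 18.7, 29.0, 22.2 and 14.9 normalized counts with vehicle and 10.8, 10.6, 4.65, 4.70 and 13.3 with testosterone. In ARNoC it stood at 6.47, 20.9, 29.6, 17.8 and 21.3 with vehicle and 8.50, 1.17, 11.7, 6.60 and 3.56 with testosterone. The WT treatments did not overlap, whereas ARNoC vehicle library 1 lay inside the testosterone range. Cd8a fell by 1.45 ± 0.44 on the log2 scale (adjusted p = 0.014) in WT and by 1.57 ± 0.45 (adjusted p = 0.010) in ARNoC.

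Cd2, an adhesion receptor of T cells and natural killer cells that binds CD48 on other cells, was the 1 member with an unadjusted p under 0.05 in the test of the difference between the genotypes' responses. WT values were 20.7, 6.59, 11.6, 10.2 and 13.8 normalized counts with vehicle and 7.70, 0, 0, 0 and 1.66 with testosterone. ARNoC values were 18.0, 8.23, 7.60, 8.37 and 2.78 with vehicle and 4.25, 2.34, 5.86, 6.60 and 4.75 with testosterone. WT testosterone library 1 alone kept a level within the vehicle range, and no read was counted in 3 libraries of that group. Cd2 fell by 2.79 ± 0.69 on the log2 scale in WT (adjusted p = 0.0030), and its log2 change in ARNoC was -0.88 ± 0.56 (adjusted p = 0.24). The test of that difference between genotypes gave 1.91 with a 95% interval of 0.01 to 3.81, and it was not called (adjusted p = 0.58). Without WT testosterone library 1 the WT value of Cd2 was -4.28 (adjusted p = 0.00017), and the difference between genotypes was 3.36 and still not called (adjusted p = 0.51).

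The other 4 surface proteins were too low to test. Cd4, the coreceptor of helper T cells that macrophages also make in some tissues, had 160 counts over the 20 libraries and between 1 and 27 in any of them. Cd5 and Cd6, scavenger-type receptors of T cells, had 54 and 32 counts, and Cd8b1, the beta chain partner of Cd8a, had 44. None of these 4 was called in either genotype when fitted without the filter.

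Lck, the kinase that starts T cell receptor signalling, fell in both genotypes. In WT its libraries held 31.0, 27.4, 29.8, 22.2 and 34.1 normalized counts with vehicle and 15.4, 14.1, 18.6, 12.9 and 15.0 with testosterone. In ARNoC they held 33.1, 19.0, 20.5, 53.4 and 34.3 with vehicle and 9.57, 8.19, 10.5, 25.2 and 10.7 with testosterone. The WT treatments did not overlap, and in ARNoC testosterone library 4 reached above 2 of the vehicle libraries. Lck fell by 0.92 ± 0.31 on the log2 scale (adjusted p = 0.025) in WT and by 1.24 ± 0.31 (adjusted p = 0.0036) in ARNoC. Without WT vehicle library 5 the WT value was -0.86 with an adjusted p of 0.056. Zap70, the kinase next in line, had 164 counts in all, of which 55 and 73 were in the WT and ARNoC vehicle groups and 12 and 24 in the testosterone groups. Lat, the adaptor downstream of both kinases, had 130 counts. Its WT libraries did not overlap, at 5.49 to 11.4 normalized counts with vehicle and 3.52 to 4.99 with testosterone. It was the 1 of the 19 untested members lower without overlap in WT, against 11.9% of all tested genes.

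**Figure D2:**
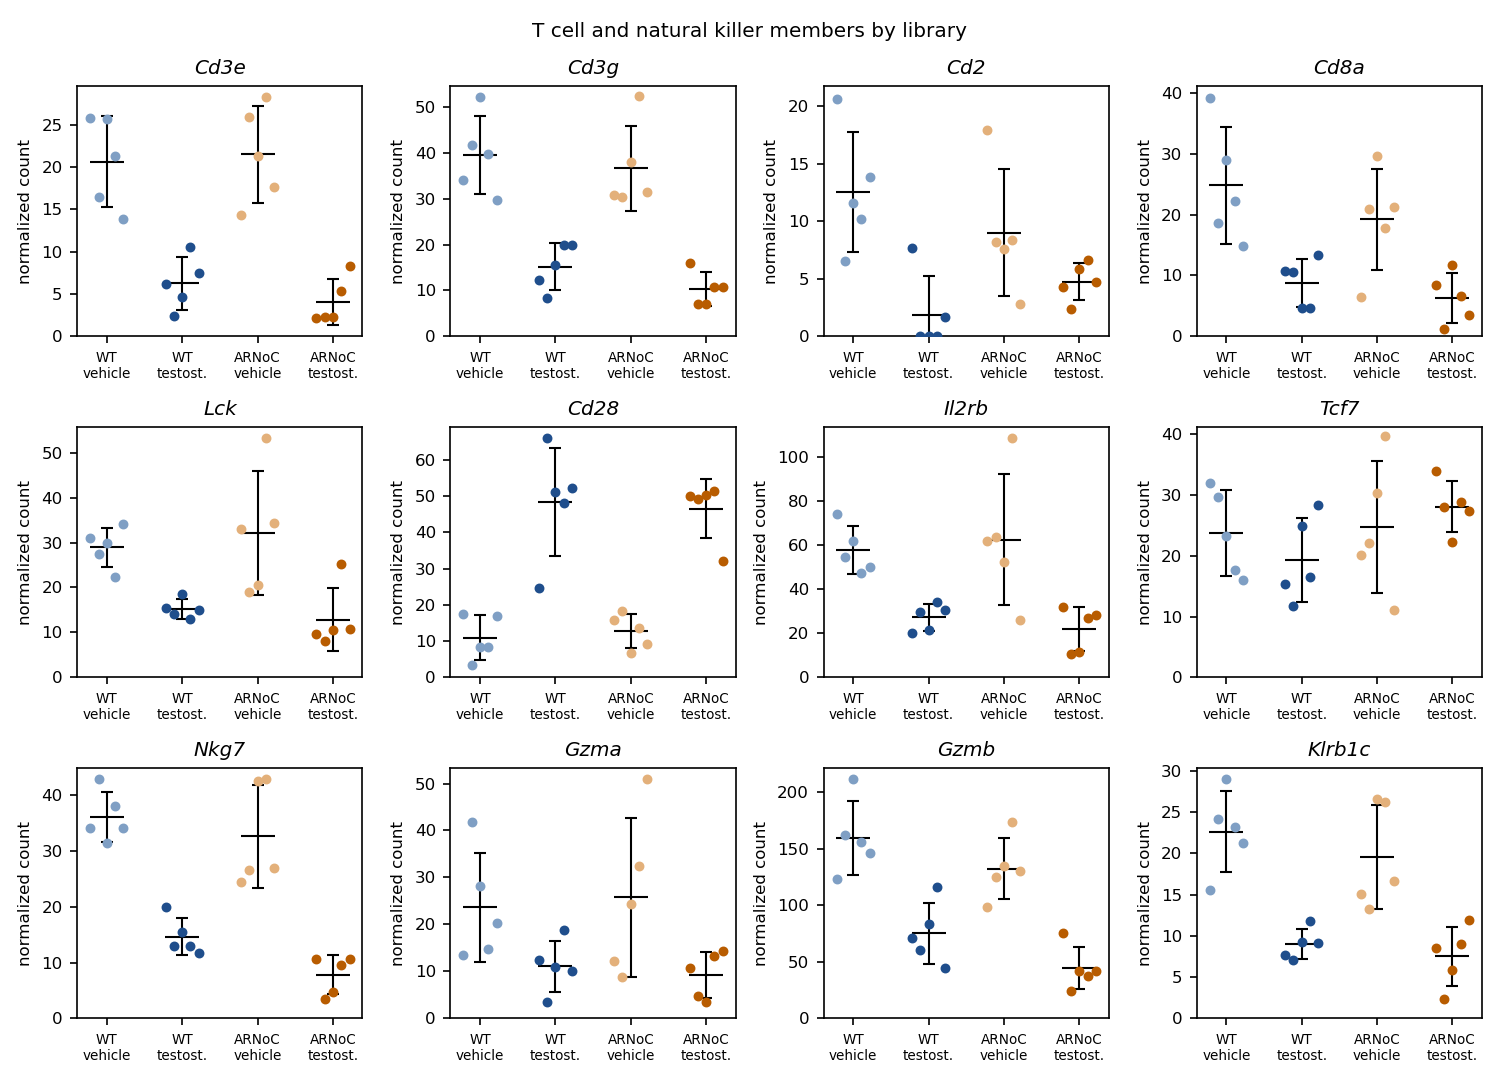
Normalized counts of 12 tested T cell and natural killer members in each of the 20 libraries; each point is 1 library, the line the mean of a group and the bars 1 SD, with a vertical axis per gene that starts at 0. Cd28 is the one panel in which the testosterone libraries stand above the vehicle libraries, Tcf7 overlaps throughout, and the other panels have lower group means with testosterone.

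Cd28 moved the opposite way. It encodes the main costimulatory receptor of T cells, which binds CD80 and CD86, and lies on chromosome 1 at 60716800 to 60773359, plus strand, in mm10. WT libraries held 17.6, 3.29, 8.28, 8.34 and 17.0 normalized counts with vehicle and 24.6, 66.0, 51.2, 48.2 and 52.4 with testosterone. ARNoC libraries held 15.8, 18.4, 6.84, 13.6 and 9.26 with vehicle and 49.96, 49.2, 50.4, 51.6 and 32.0 with testosterone. All 10 testosterone libraries stood above all 10 vehicle libraries. Cd28 rose 4.48-fold in WT (log2 change 2.16 ± 0.35, adjusted p = 6.5e-05) and 3.63-fold in ARNoC (log2 change 1.86 ± 0.34, adjusted p = 0.00023). Its estimate stayed between 1.73 and 2.39 in WT and between 1.52 and 2.03 in ARNoC over the alternatives tried, and it was called in each.

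Cd28 was also set against the T cell receptor chains. Because Cd28 rose while Cd3e and Cd3g fell, a larger change in their ratio follows from those values. The ratio is therefore no separate support for the rise of Cd28. The ratio of Cd28 to the sum of Cd3e and Cd3g lay between 0.0566 and 0.390 in the WT vehicle libraries and between 1.33 and 6.22 with testosterone. In ARNoC it lay between 0.115 and 0.349 with vehicle and between 1.69 and 5.38 with testosterone. The libraries of the 2 treatments were therefore far apart on this ratio in both genotypes. Per kilobase of exon, Cd28 averaged 1.78 normalized counts in WT with vehicle, rank 26 of the 37 members, and 7.92 with testosterone, rank 6. The same level in ARNoC was 2.09 with vehicle, rank 23, and 7.62 with testosterone, rank 8.

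**Figure D3:**
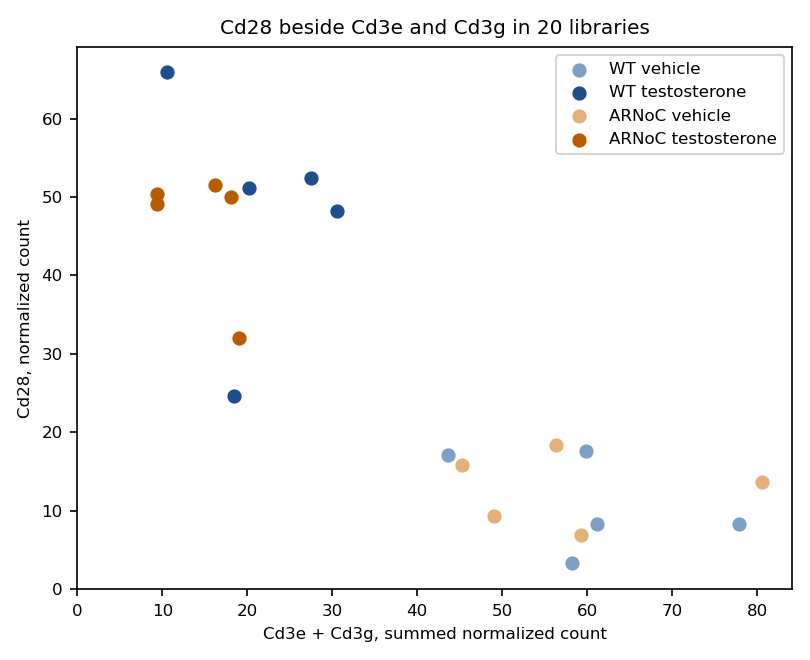
Cd28 (vertical, normalized count) against the sum of Cd3e and Cd3g (horizontal, normalized count) in 20 libraries, coloured by group. The vehicle libraries lie at the lower right, with Cd28 from 3.29 to 18.4, and the testosterone libraries at the upper left, with Cd28 from 24.6 to 66.0.

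The genes beside Cd28 on chromosome 1 were measured in the same libraries. Ctla4, the inhibitory receptor that shares its ligands, lies downstream and averaged 1.87 normalized counts in WT with vehicle and 0.166 with testosterone, on 22 counts in all libraries. Icos, an inducible costimulator of T cells and the next gene, averaged 2.64 and 0.643 in the same groups, on 39 counts. Raph1, the upstream neighbour, averaged 534 with vehicle and 558 with testosterone in WT. No neighbour named here went up with testosterone by a factor near that of Cd28. Cd27, a costimulatory receptor of the tumour necrosis factor receptor family, had 47 counts. Foxp3, which defines regulatory T cells, had 3 counts in all 20 libraries, 2 of them in ARNoC vehicle library 4, so no level can be given for that cell type.

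Il2rb encodes the beta chain that the receptors of interleukin 2 and interleukin 15 share, and is typical of natural killer cells and memory T cells. WT libraries held 74.4, 54.9, 62.1, 47.2 and 50.1 normalized counts with vehicle and 20.02, 29.5, 21.7, 34.1 and 30.8 with testosterone. ARNoC libraries held 61.8, 64.0, 52.4, 109 and 25.9 with vehicle and 31.9, 10.5, 11.7, 27.0 and 28.5 with testosterone. In WT the treatments did not overlap, and in ARNoC only vehicle library 5 fell within the testosterone range. Il2rb fell by 1.06 ± 0.33 on the log2 scale (adjusted p = 0.014) in WT and by 1.48 ± 0.33 (adjusted p = 0.0013) in ARNoC. Il7r, the receptor chain on which naive and memory T cells depend, had 106 counts in all, 33 and 47 in the WT and ARNoC vehicle groups and 8 and 18 in the testosterone groups.

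Tcf7, a transcription factor of naive and memory T cells that other tissues also express, was the 1 tested T cell member not called in either genotype. Its WT values were 32.0, 29.6, 23.2, 17.6 and 15.98 normalized counts with vehicle and 15.4, 11.8, 24.8, 16.4 and 28.3 with testosterone. Its ARNoC values were 20.1, 22.2, 30.4, 39.8 and 11.1 with vehicle and 34.01, 28.1, 22.3, 28.8 and 27.3 with testosterone. The log2 change was -0.27 (95% interval -0.92 to 0.38, adjusted p = 0.52) in WT and 0.20 (-0.42 to 0.82, adjusted p = 0.63) in ARNoC. With scaling to the library total the ARNoC estimate changed sign to -0.16 and was still not called. Both intervals leave out a fall as large as the estimates for Cd3g.

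The genes of cytotoxic granules included the most abundant members apart from the immunoglobulins. Per kilobase of exon, the mean level in WT with vehicle was 111 normalized counts for Gzmb, 39.5 for Nkg7 and 23.5 for Gzma, against 12.1 for Cd3g. Gzmb encodes granzyme B, the protease that cytotoxic lymphocytes put into target cells. Its WT libraries held 123, 162, 212, 156 and 146 normalized counts with vehicle and 70.8, 60.1, 83.8, 116 and 44.9 with testosterone. Its ARNoC libraries held 98.5, 125, 135, 174 and 131 with vehicle and 75.5, 24.6, 42.2, 37.8 and 41.5 with testosterone. The treatments were apart in both genotypes, narrowly in WT. Gzmb fell by 1.09 ± 0.26 on the log2 scale (adjusted p = 0.0024) in WT and by 1.57 ± 0.27 (adjusted p = 0.00010) in ARNoC.

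The promoter of Gzmb is shown because it is the most abundant cytotoxic member and its window differs from the CD3 windows in the motifs it holds. It is the 250 bases before the RefSeq start, chr14:56262335-56262584 on the minus strand in GRCm38.p6, with the same motifs in capitals.
Gzmb: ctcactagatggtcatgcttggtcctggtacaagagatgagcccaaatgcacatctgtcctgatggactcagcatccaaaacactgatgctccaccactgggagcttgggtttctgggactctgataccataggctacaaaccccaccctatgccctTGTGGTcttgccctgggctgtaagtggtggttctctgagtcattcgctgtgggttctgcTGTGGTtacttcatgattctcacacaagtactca
TGTGGT occurs at 2 places in this window and GGAA at none.

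Nkg7, a granule membrane protein of cytotoxic cells, had the smallest adjusted p of all members in ARNoC. Its WT libraries held 34.1, 42.8, 31.5, 38.0 and 34.1 normalized counts with vehicle and 20.02, 13.0, 15.5, 12.9 and 11.6 with testosterone. Its ARNoC libraries held 24.4, 26.6, 42.6, 42.9 and 26.9 with vehicle and 10.6, 3.51, 4.68, 9.60 and 10.7 with testosterone. No vehicle library came down to the level of a testosterone library. Nkg7 fell by 1.31 ± 0.27 on the log2 scale (adjusted p = 0.00061) in WT and by 2.01 ± 0.28 (adjusted p = 9.2e-06) in ARNoC.

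Gzma, which encodes granzyme A, varied more. In WT it was counted at 13.4, 41.7, 28.2, 14.8 and 20.2 with vehicle and 12.3, 3.54, 10.9, 18.8 and 9.98 with testosterone, on the normalized scale. In ARNoC it was counted at 12.2, 8.87, 24.3, 32.4 and 50.9 with vehicle and 10.6, 4.68, 3.51, 13.2 and 14.2 with testosterone. Treatments overlapped in both genotypes, and the highest vehicle values were in WT library 2 and ARNoC library 5, which had the lowest myeloid sums. The log2 change was -1.08 ± 0.50 in WT (adjusted p = 0.096). In ARNoC Gzma fell by 1.41 ± 0.50 (adjusted p = 0.031), and without the 2 libraries of lowest myeloid sum the ARNoC value was -0.99 (adjusted p = 0.10). That call also ended without vehicle library 4 (-1.32), vehicle library 5 (-0.995), testosterone library 2 (-1.28) or testosterone library 3 (-1.25) of ARNoC.

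Klrb1c and Klrd1 encode C-type lectin receptors of natural killer cells, NK1.1 and CD94. Klrb1c was at 15.5, 24.1, 29.0, 23.2 and 21.3 normalized counts with vehicle and 7.70, 7.07, 9.31, 11.7 and 9.15 with testosterone in WT. In ARNoC it was at 15.1, 13.3, 26.6, 26.2 and 16.7 with vehicle and 8.50, 2.34, 5.86, 8.998 and 11.9 with testosterone. Treatments did not overlap in either genotype. Klrb1c fell by 1.31 ± 0.32 on the log2 scale (adjusted p = 0.0025) in WT and by 1.34 ± 0.31 (adjusted p = 0.0023) in ARNoC. C57BL/6 mice carry near relatives of this gene, and reads shared with a close copy could not be told apart here.

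For Klrd1 the WT libraries held 16.5, 3.29, 19.1, 8.34 and 9.59 normalized counts with vehicle and 0, 3.54, 1.55, 9.40 and 5.82 with testosterone. The ARNoC libraries held 12.9, 9.50, 10.6, 9.41 and 11.1 with vehicle and 2.13, 1.17, 1.17, 8.40 and 3.56 with testosterone. Its treatments overlapped in WT and not in ARNoC. The log2 change of Klrd1 was -1.37 ± 0.57 in WT (adjusted p = 0.062), and it was called there without both libraries of low myeloid sum (-1.58, adjusted p = 0.029), without WT vehicle library 2 alone (-1.59, adjusted p = 0.026) or without WT testosterone library 4 (-1.88, adjusted p = 0.023). In ARNoC Klrd1 fell by 1.504 ± 0.55 (adjusted p = 0.040). That call ended when any 1 of the ARNoC libraries but testosterone library 4 was left out, with adjusted p between 0.051 and 0.080. Without testosterone library 4 the ARNoC value was -2.38 (adjusted p = 0.0061). Klrk1 and Ncr1, the activating receptors NKG2D and NKp46, had 157 and 133 counts over all libraries, and Prf1, perforin, had 64. Fitted in edgeR without the filter, Prf1 had a log2 change of -0.03 in WT (adjusted p = 0.99) and -1.05 in ARNoC (adjusted p = 0.27). The counts of Ncr1 were 39 and 65 in the WT and ARNoC vehicle groups and 17 and 12 in the testosterone groups.

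Of the 5 B cell members that were tested, 2 fell in WT and 1 in ARNoC. Over all tested genes 18.8% and 16.8% were called lower. Cd79b, Ms4a1 and Cd22 had passed the filter through vehicle libraries only, which favoured a fall. Ighm and Igkc reached the minimum in both treatments and were not called in either genotype. The vehicle libraries spread over a wide range. Cd79b, a signalling chain of the B cell receptor, was at 53.7, 8.78, 20.7, 14.8 and 20.2 normalized counts with vehicle and 6.16, 2.36, 6.20, 4.70 and 13.3 with testosterone in WT. In ARNoC it was at 48.2, 13.3, 12.9, 12.6 and 2.78 with vehicle and 12.8, 9.37, 10.5, 8.40 and 19.0 with testosterone. Library 1 stood far above the rest in both vehicle groups, and treatments overlapped in both genotypes. Cd79b fell by 1.77 ± 0.61 on the log2 scale in WT (adjusted p = 0.026), and its log2 change in ARNoC was -0.61 ± 0.56 (adjusted p = 0.43). The WT call ended without vehicle library 1 (-1.23, adjusted p = 0.11), without testosterone library 2 (-1.60, adjusted p = 0.061), without testosterone library 4 (-1.70, adjusted p = 0.053) and with limma-voom (adjusted p = 0.060).

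Cd22, an inhibitory receptor of B cells, fell in both genotypes, although neither call held in every alternative. WT values were 16.5, 3.29, 14.1, 10.2 and 17.0 normalized counts with vehicle and 4.62, 2.36, 4.65, 5.87 and 2.50 with testosterone. ARNoC values were 26.6, 12.7, 6.08, 17.8 and 6.48 with vehicle and 3.19, 9.37, 4.68, 2.999 and 9.50 with testosterone. In WT vehicle library 2 alone reached into the testosterone range. Cd22 fell by 1.62 ± 0.52 on the log2 scale (adjusted p = 0.019) in WT and by 1.26 ± 0.47 (adjusted p = 0.043) in ARNoC. The WT call was lost with limma-voom (adjusted p = 0.059). The ARNoC call was lost with DESeq2 (adjusted p = 0.055), with limma-voom (adjusted p = 0.070), with no filter (adjusted p = 0.055), with the ARNoC groups fitted alone (adjusted p = 0.067) and without any 1 of ARNoC vehicle libraries 1, 2 and 4 and testosterone libraries 1, 3 and 4, with values from -0.88 to -1.30.

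Ms4a1 encodes CD20, a surface protein of mature B cells. It was at 28.9, 2.20, 10.8, 6.49 and 17.0 normalized counts with vehicle and 4.62, 0, 0, 1.17 and 9.15 with testosterone in WT. In ARNoC it was at 42.4, 12.03, 19.0, 10.5 and 0.926 with vehicle and 13.8, 2.34, 3.51, 6.60 and 4.75 with testosterone. The lowest vehicle values were again in WT library 2 and ARNoC library 5. The log2 change was -1.91 ± 0.86 (adjusted p = 0.086) in WT and -1.43 ± 0.75 (adjusted p = 0.15) in ARNoC. Without those 2 libraries Ms4a1 was called lower in WT (-2.16, adjusted p = 0.026) and in ARNoC (-1.72, adjusted p = 0.044). In WT it was also called without vehicle library 2 alone (-2.17, adjusted p = 0.049) and without testosterone library 5 (-3.19, adjusted p = 0.025). Cd79a, the partner of Cd79b, had 147 counts over all libraries, Cxcr5, a chemokine receptor that guides B cells to follicles, had 62, and Pax5, the factor that keeps B cell identity, had 32. Cxcr5 had 16 counts in the WT vehicle group and 0 in the WT testosterone group, so its level was at least 4.38-fold lower with a floor of 3 counts over the group.

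The immunoglobulin constant genes Ighm and Igkc, of the heavy chain of IgM and the kappa light chain, were far more abundant than any other member and varied widely. In antibody-secreting plasma cells these transcripts reach very high levels. Ighm was at 16595, 3714, 7521, 6076 and 4957 normalized counts in WT with vehicle and at 402, 446, 433, 8563 and 2355 with testosterone. In ARNoC it was at 6763, 6453, 1425, 973 and 415 with vehicle and at 5304, 1169, 5047, 1847 and 2791 with testosterone. In WT, 4 of the 5 testosterone libraries lay below all vehicle libraries and library 4 lay above 4 of them, while the ARNoC treatments overlapped fully. Ighm differed by -1.66 ± 0.84 on the log2 scale in WT (adjusted p = 0.13) and by 0.02 ± 0.82 in ARNoC (95% interval -1.69 to 1.73, adjusted p = 0.99). Without WT testosterone library 4 the WT value was -3.11 and was called (adjusted p = 0.0061).

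Igkc followed Ighm library by library. Its WT libraries held 5134, 1407, 2499, 3197 and 1165 normalized counts with vehicle and 126, 126, 152, 2336 and 902 with testosterone. Its ARNoC libraries held 1852, 2006, 449.9, 299 and 194 with vehicle and 1818, 339, 1636, 528 and 1249 with testosterone. The ratio of Ighm to Igkc stayed between 1.90 and 4.25 in all 20 libraries, although Ighm itself ranged from 402 to 16595. The log2 change of Igkc was -1.85 ± 0.79 in WT (adjusted p = 0.071) and 0.21 ± 0.77 in ARNoC (adjusted p = 0.85). Without WT testosterone library 4 the WT value was -3.02 (adjusted p = 0.0067).

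Ighm did not keep pace with the surface genes of B cells. Its ratio to the sum of the 6 B cell members other than Ighm and Igkc ranged from 76.3 to 212 in the WT vehicle libraries and from 23.7 to 561 in the WT testosterone libraries. The ARNoC ranges were 17.9 to 131 and 47.6 to 154. In WT testosterone library 4, which held 8563 normalized counts of Ighm, Ms4a1 stood at 1.17 and Cd79b at 4.70. ARNoC vehicle library 1, with the highest Ms4a1 of all libraries, held less Ighm than WT testosterone library 4.

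**Figure D4:**
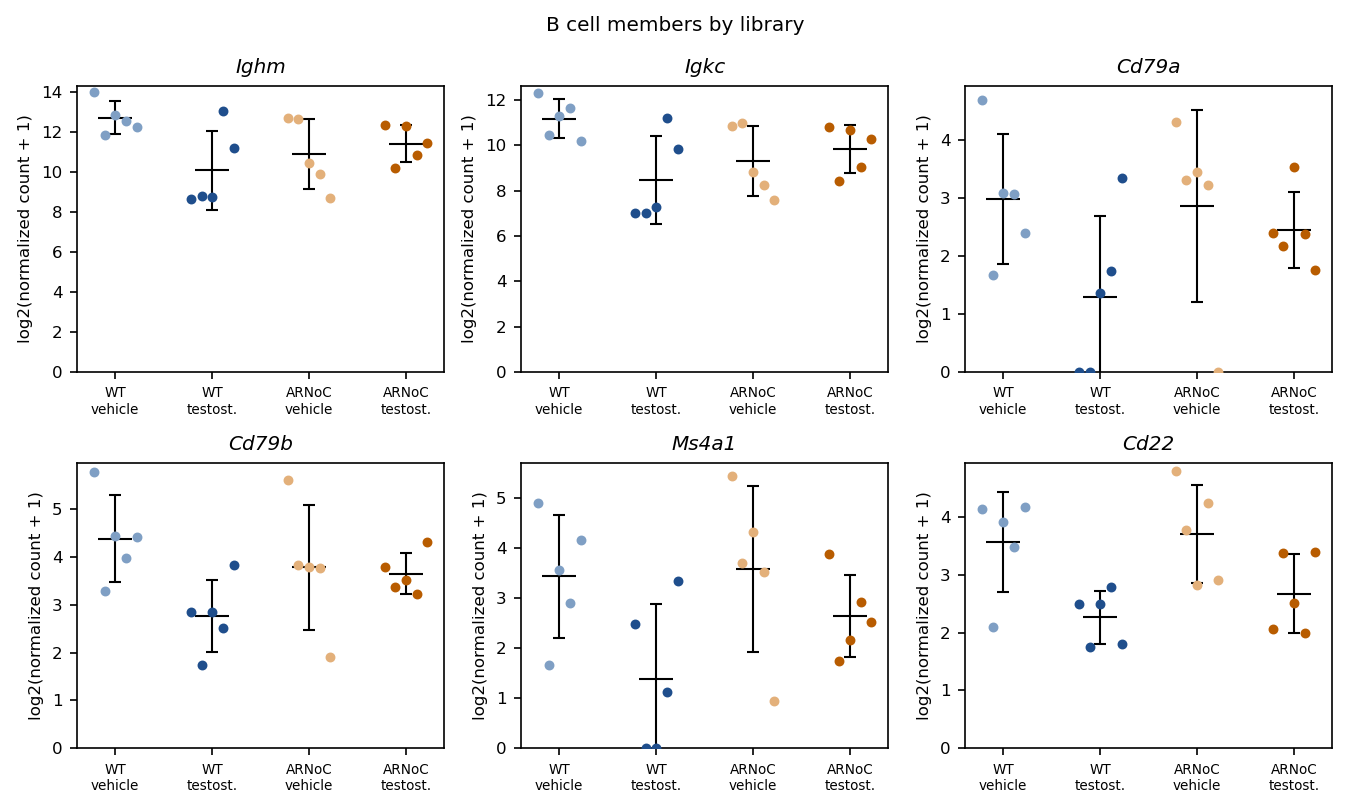
Levels of 6 B cell members on a log2(normalized count + 1) scale in each of the 20 libraries; points are libraries, lines the group means and bars 1 SD on that scale. Ighm and Igkc show 3 low and 2 high WT testosterone libraries, and for Cd79b library 1 stands highest in both vehicle groups, at 53.7 and 48.2 normalized counts.

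The 19 members that were not tested were examined without the filter, where 18 of them could be fitted and Foxp3 could not. In WT 17 of the 18 log2 values were negative, and Cd3d (-2.01, adjusted p = 0.024), Cd247 (-1.55, adjusted p = 0.029), Zap70 (-1.89, adjusted p = 0.016) and Cxcr5 (adjusted p = 0.024) were called lower. In ARNoC 17 of 18 were again negative, and Cd247 (-1.64, adjusted p = 0.034), Zap70 (-1.40, adjusted p = 0.049) and Ncr1 (-2.13, adjusted p = 0.0053) were called lower. The exception was Cd5 in WT and Cd4 in ARNoC. Some of the negative values were near 0, such as those of Prf1 (-0.03) and Pax5 (-0.13) in WT. The share of negative values over all genes fitted without the filter was not calculated. Their median log2 change was -0.08 in WT and -0.06 in ARNoC. None of the 18 was called higher. Without the filter 23221 genes were fitted, of which 14% were called lower and 11.7% higher in WT, and 12.7% lower and 11.1% higher in ARNoC. The 4 and 3 of 18 members called lower are to be read against those shares. An exon of Cxcr5 lies over Bcl9l on the opposite strand, an exon of Cd247 over Pou2f1 and an exon of Cd27 over Vamp1. Those neighbours had 16841, 10097 and 7305 counts, the strand setting is not given in the sources used here, and the part of their reads in these low values was not tested.

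The libraries of the 2 treatments did not overlap for some members. Among the 18 tested members, 8 were lower without overlap in WT (Cd3e, Cd3g, Cd8a, Lck, Il2rb, Nkg7, Gzmb and Klrb1c) and 1 was higher, Cd28. Over all tested genes 11.9% were lower and 15.2% higher in that sense. In ARNoC, 6 members were lower without overlap (Cd3e, Cd3g, Nkg7, Gzmb, Klrd1 and Klrb1c) and Cd28 was higher, against 10.7% lower and 12.4% higher over all genes. Cd3e, Cd8a and Klrb1c in WT and Cd3e, Klrd1 and Klrb1c in ARNoC had passed the filter through vehicle libraries only, which favoured a downward separation. Among the 10 members that reached the minimum in both treatments, 5 in WT and 3 in ARNoC were lower without overlap. No B cell member was among them in either genotype.

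Genotype made no difference that was called for any member. With vehicle, 0 of the 18 tested members were called between ARNoC and WT by edgeR, where 0.321% of all genes were, 0.17% higher and 0.151% lower, and none had an unadjusted p under 0.05. DESeq2 and limma-voom called 0 members too. No member's vehicle libraries were free of overlap between genotypes, against 0.95% of all genes higher and 0.806% lower. The 95% interval of the log2 difference, ARNoC minus WT, was -0.64 to 0.40 for Cd3g, -0.79 to 0.25 for Gzmb and -0.51 to 1.01 for Cd28. For Ighm it was -3.00 to 0.47 and for Igkc -3.09 to 0.16, wide enough to hold both no difference and a large one. With testosterone, 0 of 18 were called by edgeR, where 1.69% of all genes were, 0.681% higher and 1.01% lower, and 2 members had an unadjusted p under 0.05. These were Nkg7, at -0.85 (95% interval -1.46 to -0.24, adjusted p = 0.17), and Gzmb, at -0.75 (-1.32 to -0.19, adjusted p = 0.19). Nkg7 was also the 1 member whose testosterone libraries did not overlap between genotypes, at 11.6 to 20.02 normalized counts in WT and 3.51 to 10.7 in ARNoC, while 2.33% of all genes were lower and 1.51% higher in that sense. DESeq2 called 0 of the 14 members to which it gave an adjusted p, and limma-voom 0 of 18.

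The response to testosterone was not shown to differ between genotypes for any member. edgeR called 0 members and 0% of all genes in this test of the difference between responses, and Cd2 alone among the members had an unadjusted p under 0.05. DESeq2 gave an adjusted p to 4 members and called none, and limma-voom called 0. The 95% interval of the ARNoC response minus the WT response was -1.24 to 0.35 for Cd3g, -1.50 to 0.09 for Nkg7 and -1.31 to 0.71 for Cd28. For Ighm it was -0.76 to 4.12 and for Igkc -0.23 to 4.37. The calls of Cd2 and Cd79b in WT alone, and of Gzma and Klrd1 in ARNoC alone, are therefore not evidence of a genotype difference.

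Other genes of these cells were taken from lists. Counts in this and the later lists are to be read against all tested genes. Of these, 18.8% were called lower and 20.4% higher in WT, and 16.8% lower and 19.4% higher in ARNoC. Whether the listed genes passed the filter through vehicle libraries only was not examined. Some genes stand on several lists and count in each. Tyrobp is on the natural killer and the myeloid list, and Fcer1g on the signalling partner and the myeloid list. Hcst is on the natural killer and the signalling partner list, and Cxcl13 on the ligand and the lymph node list. Of 22 tested T cell genes that are not members, 11 fell and 1 rose in WT, and 13 fell and 1 rose in ARNoC. Cd7, a surface protein of T cells and natural killer cells, fell by 1.77 ± 0.27 on the log2 scale (adjusted p = 3.3e-05) in WT and by 2.04 ± 0.27 (adjusted p = 6.7e-06) in ARNoC. Gata3, the factor of helper T cells that prostate epithelium also expresses, fell by 0.98 ± 0.12 (adjusted p = 1.6e-06) in WT and by 0.87 ± 0.12 (adjusted p = 7.0e-06) in ARNoC. Tnfrsf18, the receptor GITR, was the 1 that rose, by 1.16 ± 0.27 in WT (adjusted p = 0.0017) and 0.97 ± 0.25 in ARNoC (adjusted p = 0.0048), and is named here because a count of 1 turns on it. Among 9 tested natural killer and cytotoxic genes outside the members, 6 fell and 0 rose in WT, and 5 fell and 0 rose in ARNoC. Ctsw, a cathepsin of cytotoxic cells, fell by 1.59 ± 0.27 and 1.19 ± 0.26, and Tyrobp, an adaptor that myeloid cells share, by 2.07 ± 0.30 and 1.33 ± 0.29.

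Of 17 further B and plasma cell genes, 7 fell in WT and 6 in ARNoC and none rose. Btk, a kinase of B cell receptor signalling that myeloid cells also use, fell by 2.39 ± 0.46 on the log2 scale in WT and by 1.19 ± 0.41 in ARNoC. Tnfrsf13b, a receptor for B cell survival factors, fell by 2.20 ± 0.44 and 1.23 ± 0.40. Among 13 tested ligands of the members' receptors, 7 fell in WT and 8 in ARNoC and none rose. Clec2d, the ligand of a Klrb1 receptor, fell by 1.09 ± 0.16 and 1.12 ± 0.15. Alcam, which binds CD6, fell by 0.56 ± 0.09 and 0.78 ± 0.09. Of 22 signalling partners shared with other cells, such as Plcg2 and Fcer1g, 9 fell in WT and 5 in ARNoC and none rose. The ARNoC count is not far from the 16.8% of all genes called lower there. Plcg2 fell by 0.89 ± 0.09 and 1.03 ± 0.09, and Fcer1g by 1.92 ± 0.28 and 1.06 ± 0.27. In none of these 5 lists was a gene called in a genotype comparison or in the difference between responses.

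Markers of other leukocytes moved with the members. All 13 tested pan-leukocyte genes fell in WT and 12 of 13 in ARNoC, and 24 of 24 macrophage and myeloid genes fell in WT and 18 of 24 in ARNoC. In WT Cytip and Cd52, of lymphocytes and other leukocytes, fell by 2.29 ± 0.22 and 1.94 ± 0.23 on the log2 scale, and Ctss and Aif1, of macrophages, by 1.92 ± 0.23 and 2.13 ± 0.27. In ARNoC the same 4 genes fell by 2.06 ± 0.21, 1.08 ± 0.22, 1.201 ± 0.22 and 1.62 ± 0.27. The summed level of the 14 pan-leukocyte markers was 1689 to 5484 normalized counts in WT with vehicle, 593 to 1314 after testosterone, 1250 to 4656 in ARNoC with vehicle and 1016 to 1895 with testosterone. The myeloid sums in the same order were 4737 to 24956, 2475 to 4926, 4475 to 16986 and 3668 to 7281. Summed over the 28 T cell and natural killer members other than Cd28, the levels were 495 to 641, 200 to 314, 421 to 738 and 135 to 249. That T cell and natural killer sum did not overlap between treatments in either genotype. Abundant genes weigh most in it: Gzmb, itself without overlap, averaged 160 normalized counts in WT with vehicle, where the sum averaged 556. The myeloid sums overlapped in both genotypes and the pan-leukocyte sums in ARNoC. In WT the myeloid sum of vehicle library 2, at 4737, lay just below the highest with testosterone, at 4926. With Cd28, the member called higher, the levels were 506 to 650, 266 to 362, 436 to 751 and 184 to 299, again without overlap. The sum of the 6 B cell members other than Ighm and Igkc overlapped in both genotypes. As a percentage of the pan-leukocyte sum, the T cell and natural killer sum without Cd28 had a median of 19.1 in WT with vehicle and 33.8 with testosterone. In ARNoC the median was 15.8 with vehicle and 13.6 with testosterone, and the libraries overlapped in both genotypes. The percentage with Cd28 was not calculated. The part of other leukocytes in the members' changes was not tested.

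**Figure D5:**
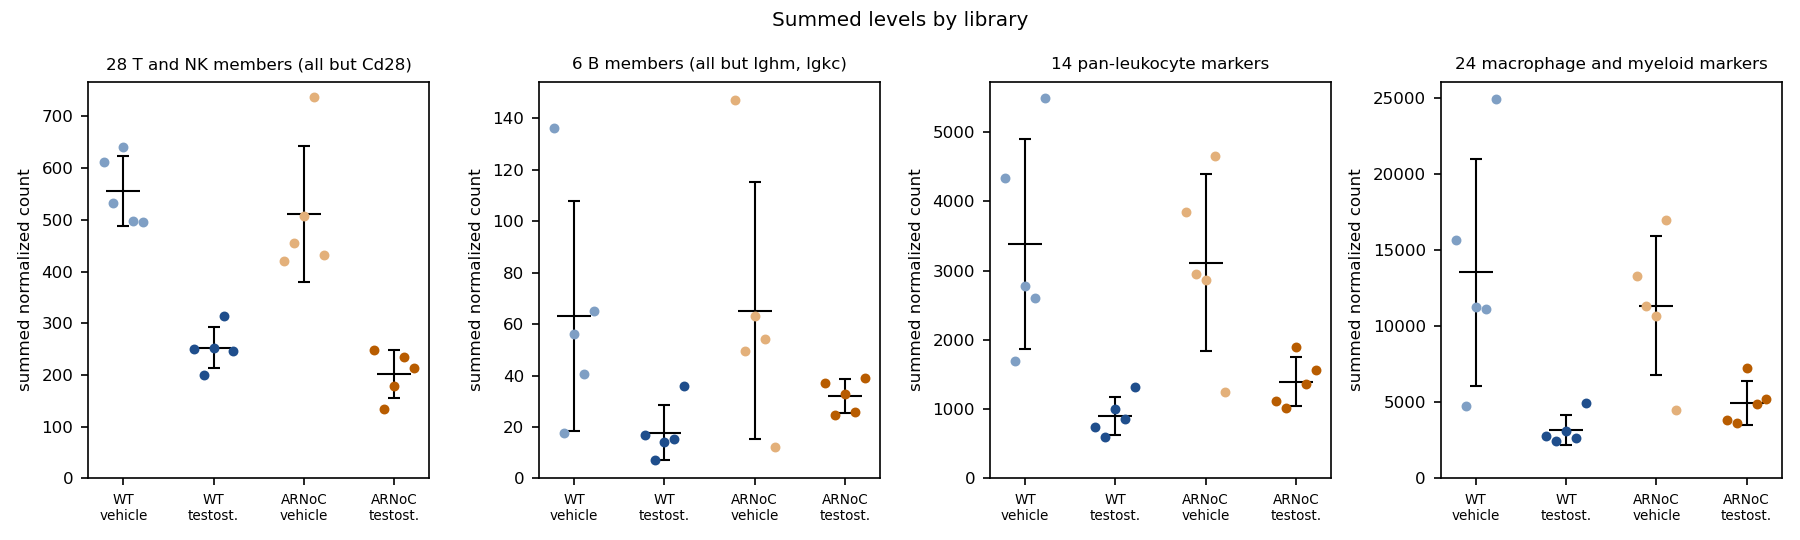
Summed normalized counts in each of the 20 libraries over 28 T cell and natural killer members, 6 B cell members, 14 pan-leukocyte markers and 24 macrophage and myeloid markers; points are libraries, lines means and bars 1 SD, on linear axes that start at 0. The T cell and natural killer sum, without Cd28, stays at 495 or above in WT with vehicle and at 314 or below with testosterone. The myeloid sums of the vehicle libraries run from 4475 to 24956.

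The 2 vehicle libraries with few myeloid counts, also classed as stroma-poor, show how the classes came apart. The part of stroma in these differences was not tested. In WT vehicle library 2 and ARNoC vehicle library 5 the 6 B cell members without Ighm and Igkc summed to 17.6 and 12.04 normalized counts, the lowest of their groups, whose highest were 136 and 147. The T cell and natural killer sum without Cd28 was 533 and 432 in the same libraries, within the range of the others. Without both libraries, 13 members were called lower in WT and 11 in ARNoC, and Cd28 was called higher in each. The 8 markers of lymph node stroma and vessels summed to 39.5 to 222 normalized counts in WT with vehicle, 27.1 to 84.0 with testosterone, 12.04 to 138 in ARNoC with vehicle and 32.8 to 148 with testosterone. Of these, Ccl19 had no count in any group, and Ccl21a and Glycam1 had none in 3 of the 4 groups each. Cxcl13 and Bst1 were high enough to test. The part of lymph node tissue in the members' values was not tested.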

How the data were processed

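Bulk RNA of the ventral prostate was sequenced in 20 libraries, 5 in each of 4 groups taken from the labels. Raw counts for each gene symbol make up the deposited count table; per the submitters' processing notes FastQC 0.11.7, HISAT2, SAMtools 1.5, HTSeq and DESeq2 were used with mm10, and the annotation and strand setting were not given in the sources used here. In the deposited normalized signal each value is that count divided by a size factor of its library.

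Counts were scaled with TMM and fitted in edgeR 4.0.16 (R 4.3.3) with 1 mean per group, and p-values of the quasi-likelihood F-test were adjusted by the Benjamini-Hochberg method over 15261 genes, with a threshold of 0.05. Standard errors come from the log2 change and its F statistic. There were 5 comparisons: testosterone against vehicle in each genotype, ARNoC against WT under each treatment, and the difference of the responses. Lists are described by counts and medians with no test of their own. Alternatives were DESeq2 1.42.0, limma-voom (limma 3.58.1), other scalings and filters, the compared groups alone and leaving out libraries. The fit was tested on simulated data with changes placed only in genes of higher mean count. That test does not cover most of the members, which were counted at lower levels. Values set beside these were normalized counts; the floor for a group with no count is 3 counts over the group. Coordinates and exon lengths are from GENCODE M21 (mm10) and promoters from RefSeq (GRCm38.p6), both matched by symbol.

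The members, lists and tests were chosen with earlier results of these data known. All 37 members were named, and from every other list the 2 genes with the smallest adjusted p in the WT response, with up to 3 called between genotypes in a pathway list. Some genes named by this rule are not reported here. Of the listed genes, 5 (Trdc, Iglc1, Iglc3, Raet1a and Raet1b) had no row under those symbols. Replicate numbers only name libraries. In each of the 40 pairs of replicates the libraries differed beyond sampling noise.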

Additional observations from a re-analysis of the deposited data

Results flagged for a closer look

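Among the 72 sets made of a tested member and a group, 6 held a library whose value stood apart from the other 4 by more than Dixon's 95% limit allows; chance flags about 1 in 20 such sets. Cd2 was at 7.70 normalized counts in WT testosterone library 1 and at 0 to 1.66 in the others. Lck was at 25.2 in ARNoC testosterone library 4, against 8.19 to 10.7. Cd28 was at 32.0 in ARNoC testosterone library 5, below the 49.2 to 51.6 of the others. Cd79b was at 53.7 in WT vehicle library 1, against 8.78 to 20.7, and at 48.2 in ARNoC vehicle library 1, against 2.78 to 13.3. Ighm was at 8563 in WT testosterone library 4, against 402 to 2355.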

How the results depend on the processing

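No count of members called moved by more than 1.5 times, and no called member changed sign, under any alternative; signs of values that were not called were not followed. In WT the count called lower was 11, from 10 to 13 when single libraries were left out and from 9 to 16 under the other alternatives. In ARNoC it was 11, from 8 to 10 and from 9 to 12. Cd28 was the 1 member called higher throughout, and no member was called in a genotype comparison or in the difference of responses. Of 24 calls of members in the testosterone responses, 18 held in every alternative that tested the gene and 6 ended in at least 1. Those 6 were Lck, Cd79b and Cd22 in WT, and Gzma (also with limma-voom, adjusted p = 0.11), Klrd1 (also with no filter, adjusted p = 0.0504) and Cd22 in ARNoC. The cause was not tested. Cd2 was not tested under the filter on the mean over libraries. Of the calls that held, Cd3e, Cd8a and Klrb1c in both genotypes and Cd2 in WT had passed the main filter through vehicle libraries only. The scalings, other tools and left-out libraries kept the genes of that filter, so holding there does not undo that selection. With scaling to the library total Gzma, Klrd1, Ms4a1, Ighm and Igkc were called lower in WT too, and limma-voom called Ighm (-2.57) and Igkc (-2.56). Counts over all genes between genotypes depended on the tool: DESeq2 called 71 higher and 66 lower with vehicle, against 26 and 23 in edgeR, 200 and 298 with testosterone, against 104 and 154, and 12 and 17 for the difference of responses, against 0. With the compared groups fitted alone, 8 and 11 were called with vehicle. No paired analysis was possible because the labels carry no replicate numbers that pair libraries across groups. Depth limits the 19 untested members, whose counts sum to between 3 and 164 over 20 libraries.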

Other observations

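Markers of other cell types of the gland were measured in the same libraries. Beside their counts, 18.8% of all tested genes were called lower and 20.4% higher in WT. In ARNoC 16.8% were called lower and 19.4% higher. Of 11 fibroblast genes, 4 fell in WT and 1 in ARNoC, among them Lum, a proteoglycan of the matrix, by 3.004 ± 0.74 on the log2 scale in WT and by 2.70 ± 0.71 in ARNoC. Col1a1, a collagen, fell by 1.74 ± 0.59 in WT, and its log2 change in ARNoC was 0.13 ± 0.57. Of 10 endothelial genes 3 fell in WT, with Robo4 down by 1.37 ± 0.36 and Egfl7 by 0.81 ± 0.23, and none was called in ARNoC. Smooth muscle genes went the other way, with 1 of 8 higher in WT and 5 of 8 higher in ARNoC; Actg2, an actin of smooth muscle, rose by 0.90 ± 0.34 and 1.35 ± 0.33. Cnn1, a calponin, was not called in WT (0.76 ± 0.31) and rose by 0.96 ± 0.31 in ARNoC. All 4 tested neutrophil genes fell in WT and 2 in ARNoC, and Csf3r, the receptor of the granulocyte growth factor, fell by 2.78 ± 0.55 and 1.52 ± 0.49. S100a8 fell by 3.21 ± 0.73 in WT and was not called in ARNoC (-1.28 ± 0.71). Of 7 dendritic cell genes 3 fell in WT and 1 in ARNoC, with Itgax down by 1.13 ± 0.25 and 1.01 ± 0.25. Batf3, a factor of dendritic cells, fell by 2.06 ± 0.48 in WT and was not called in ARNoC (-0.23 ± 0.39). Mast cell genes had 1 of 5 lower in WT, Hdc (-1.91 ± 0.75), and none called in ARNoC; Cpa3 was not called in WT (-2.21 ± 0.91). Of 2 tested genes of lymph node stroma, Bst1 fell by 2.61 ± 0.71 in WT and Cxcl13 was not called (-0.64 ± 0.57), and neither was called in ARNoC. Of 9 luminal genes 3 rose and 5 fell in WT and 3 rose and 6 fell in ARNoC. Of 7 basal genes 4 fell in WT and 5 in ARNoC, among them the keratin Krt17, by 1.46 ± 0.26 and 0.77 ± 0.26. Krt14 fell by 1.41 ± 0.28 in WT and was not called in ARNoC (-0.42 ± 0.27). Between genotypes, Batf3 was called higher in ARNoC with testosterone.

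Il15, the cytokine whose receptor holds the Il2rb chain and on which natural killer cells depend, fell by 1.13 ± 0.21 in WT (adjusted p = 0.00021) and by 1.65 ± 0.21 in ARNoC (adjusted p = 3.1e-06); it was chosen after its values were seen. Igha, of the heavy chain of IgA, likewise chosen, fell by 4.58 ± 1.08 in WT (adjusted p = 0.0022), and its log2 change in ARNoC was -1.66 ± 0.98 (adjusted p = 0.20).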
